A study of Drosophila melanogaster with 2 samples.

Results

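The 10 genes Egfr, spi, aos, pnt, aop, sty, rho, vn, Krn and kek1 of the Drosophila EGF receptor pathway were examined for binding of a GFP-tagged Ladybird early protein (Lbe). They are 10 of 13945 annotated protein-coding genes. A bound region was assigned to a gene when its summit lay in the gene body or within 5000 bp of it. By this rule 43 of the 4782 regions that passed the irreproducible discovery rate (IDR), a threshold on the reproducibility of ranks between replicates, fell at these genes. Passing it does not mean that a region ranked high in both replicates.

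Lbe is a homeodomain transcription factor known for its role in muscle and heart cell identity. ChIP-seq, the sequencing of DNA precipitated with a chromatin protein, was done on whole embryos of mixed sex aged 0 to 24 h, from the transgenic strain lbe-GFP. The strain carries a stable insertion that fuses GFP to the Lbe C-terminus, and sonicated chromatin was precipitated through the GFP. The 2 biological replicates formed 1 group, and no other genotype or treatment was compared. The labels name a control for the calling, which was not analysed here. Embryos were taken whole across the stage, so a signal from few cells and a weak signal from many cells cannot be told apart. The files hold regions and no reads, so the depth of each library is unknown.

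The EGF receptor pathway passes a signal from secreted ligands through the receptor tyrosine kinase Egfr and the Ras and MAP kinase cascade to the nucleus. There the kinase acts on a pair of ETS-domain factors, the activator Pointed (pnt) and the repressor Anterior open (aop, also called Yan). The pathway is known in the fly embryo for patterning the ectoderm and for the choice of muscle and heart progenitors in the mesoderm. Several of its inhibitors are themselves targets of the signal, among them argos (aos), sprouty (sty) and kekkon 1 (kek1).

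The windows around 5 summits are shown because they are the strongest region at 4 of the genes and the promoter summit of Krn, the member whose start site is crowded by neighbours. Each window reaches 100 bp to either side of the summit, in dm6 coordinates, and reads 5′ to 3′ on the strand of the gene. The Krn promoter window ends at the base before the start site. Capitals mark matches, on either strand, to 7 searched words, none of which contains another. They were TAATTA (homeodomain core), TAACTA (ladybird type), GAGAGA (word of the Trl protein), TATCGATA (the DRE element), CAGCTG (E-box), AGATAA (zinc fingers of the GATA family) and CCGGAA (ETS factors). The sequence is that of the RefSeq release 6 genome.
spi, promoter region of signal 377, chr2L:19572804-19573004, minus strand: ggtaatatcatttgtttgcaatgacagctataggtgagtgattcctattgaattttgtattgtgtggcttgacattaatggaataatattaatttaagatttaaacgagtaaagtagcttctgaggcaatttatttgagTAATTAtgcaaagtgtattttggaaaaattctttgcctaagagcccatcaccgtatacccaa
Krn, intron region of signal 297, chr3L:17653561-17653761, minus strand: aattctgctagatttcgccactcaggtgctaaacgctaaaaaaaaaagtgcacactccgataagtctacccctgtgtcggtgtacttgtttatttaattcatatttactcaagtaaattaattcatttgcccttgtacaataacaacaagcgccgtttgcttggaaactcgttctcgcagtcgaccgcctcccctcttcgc
Krn, promoter region of signal 234, chr3L:17654281-17654463, minus strand: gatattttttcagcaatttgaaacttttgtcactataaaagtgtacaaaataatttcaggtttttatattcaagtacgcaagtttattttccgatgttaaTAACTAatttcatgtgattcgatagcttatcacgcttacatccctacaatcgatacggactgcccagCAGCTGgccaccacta
pnt, promoter region of signal 199, chr3R:23295467-23295667, minus strand: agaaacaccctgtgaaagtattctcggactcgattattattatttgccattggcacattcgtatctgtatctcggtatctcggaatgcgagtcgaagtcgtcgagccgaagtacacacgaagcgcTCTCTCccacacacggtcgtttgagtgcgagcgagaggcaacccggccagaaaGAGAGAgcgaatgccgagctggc
aos, promoter region of signal 170, chr3L:16483869-16484069, minus strand: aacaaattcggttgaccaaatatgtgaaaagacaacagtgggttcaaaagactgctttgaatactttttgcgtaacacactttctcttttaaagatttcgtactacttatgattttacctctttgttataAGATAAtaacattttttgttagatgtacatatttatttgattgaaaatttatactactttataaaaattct

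Of these windows, the one at spi held the homeodomain core TAATTA, and the one at the Krn promoter held TAACTA together with the E-box CAGCTG. The pnt window held GAGAGA on both strands. The aos window held AGATAA, and the strongest Krn window held none of the words. A match is a description of the letters and no evidence of a bound site.

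Binding regions were found at 8 of the 10 genes, all but rho and kek1. Over all protein-coding genes the share was 47.4%, and over the 3654 genes at least as long as Krn, the shortest member at 4719 bp, it was 57.6%. With the gene body alone, 8 members again had a region, against 12.1% of all genes, most of which are shorter. The median member was 17768 bp long, against 2166 bp for all genes, so the members offer wider targets. The median number of IDR regions per gene was 5 for the members and 0 for all genes, with means of 4.3 and 0.932. For each member, the median over genes within 1.5 times its length was 1.

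**Figure D1:**
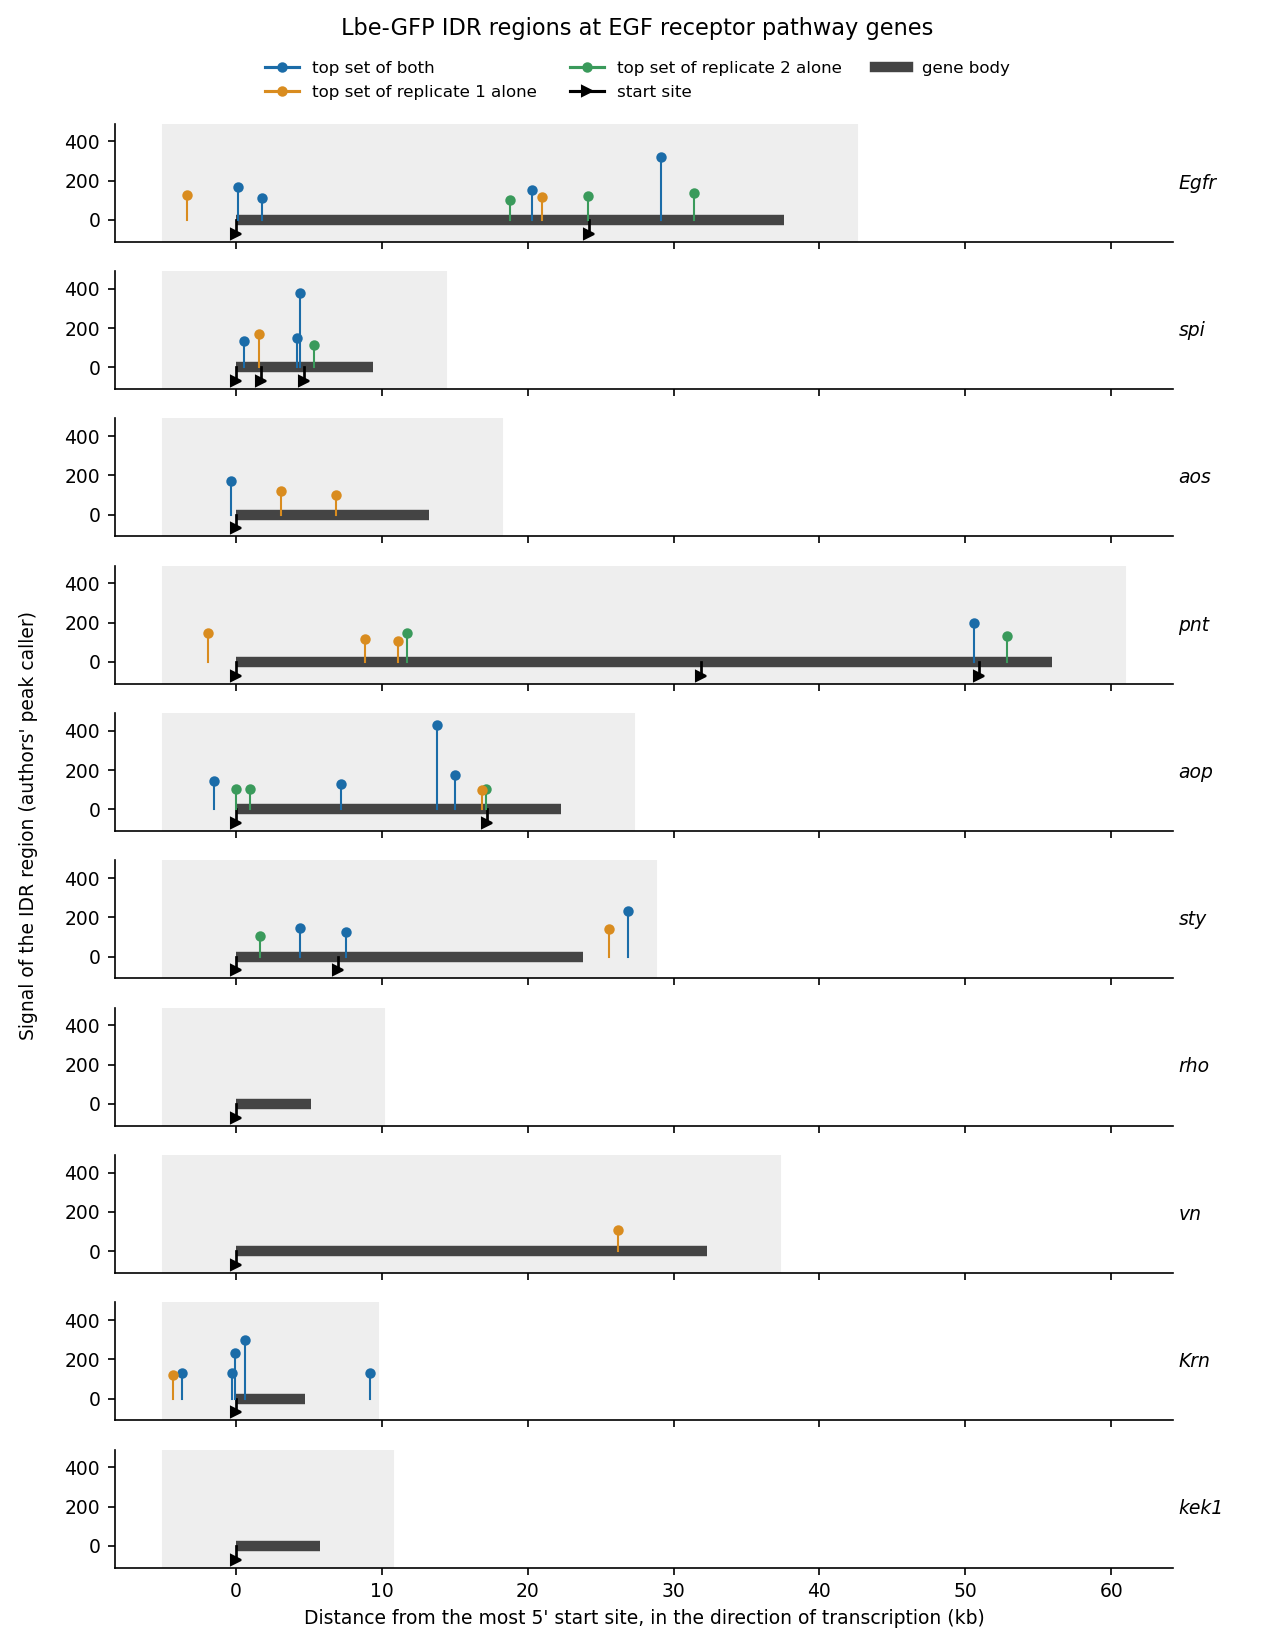
IDR regions along each of the 10 genes. The x axis is the distance from the most 5′ start site in the direction of transcription (kb), the y axis the signal given by the authors' peak caller, bars are gene bodies, shading is the 5 kb window, and colours show which replicates had the region among their 4782 strongest. The tallest points lie in an intron of aop (431), at the third spi promoter (377) and in an intron of Egfr (321), and the panels of rho and kek1 hold none.

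The count of regions ran from 9 at Egfr, 8 at aop, 6 at Krn and 6 at pnt to 5 at spi, 5 at sty, 3 at aos and 1 at vn. Summits less than 500 bp apart formed 40 groups, since neighbouring regions at spi, aop and Krn lay close together. Counting the gene itself, 34 of 13945 genes had as many regions as Egfr or more, and 62 had as many as aop or more. Compared with the 2548 genes within 1.5 times its length, Krn stood near the top, with 22 genes at its count or above. For Egfr this was 7 of 550 genes, for aop 13 of 789 and for spi 43 of 1413. The Krn window also holds regions at the start sites of Ndfip, CG7484 and Pep, so its count is not of Krn alone. The counts of sty (67 of 774), pnt (46 of 380) and aos (227 of 1137) were met more often by genes of like length. The count of vn was met or passed by 377 of 619 such genes, so its single region is what a gene of that length commonly has.

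**Figure D2:**
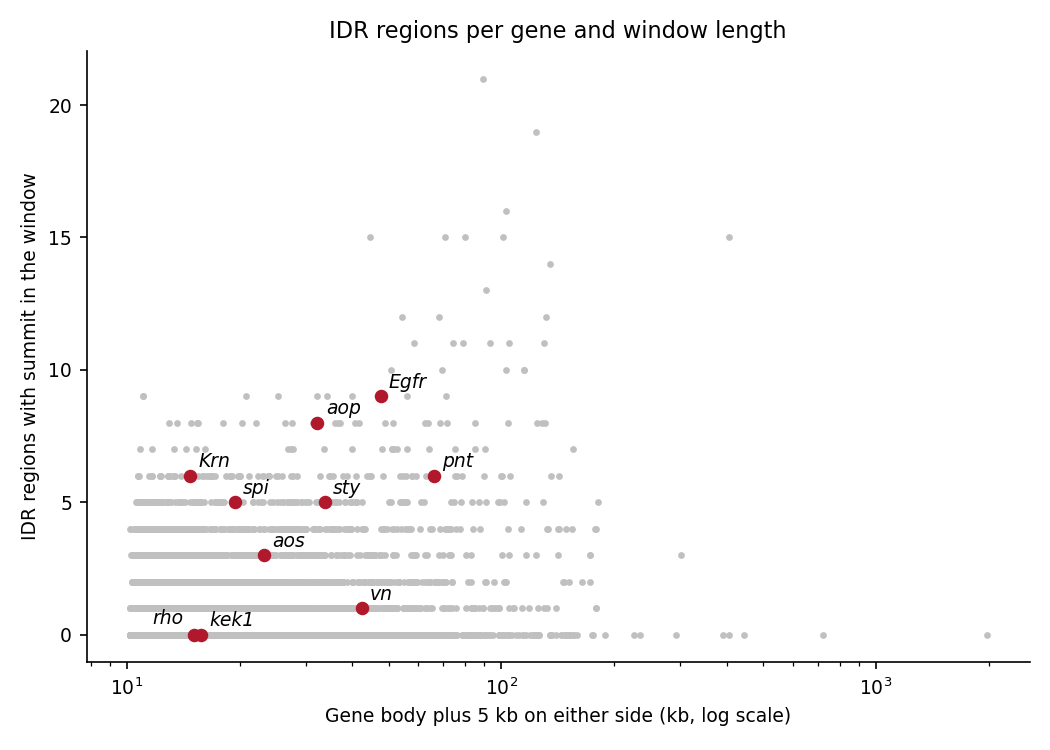
Number of IDR regions per protein-coding gene (y axis) against the length of its gene body plus 5 kb on either side (x axis, kb, log scale). Grey points are all 13945 genes and red points the 10 members. Egfr has 9 regions, Krn has 6 in the shortest member window, which neighbouring genes share, and rho and kek1 lie at 0.

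The start sites of the 10 genes formed 17 annotated promoters, with 5 genes having more than 1. An IDR summit lay within 500 bp of 9 of these promoters, against 19.1% of the 17771 promoters of all protein-coding genes. Counted by gene, 6 members had a marked promoter (Egfr, spi, aos, pnt, aop and Krn), against 21.5% of all genes. The pooled list of both replicates reaches far weaker regions, and its label names it peaks and background. It held a summit at all 17 promoters, against 46.8% of all promoters. Some lay deep in that list, such as the one at spi promoter 1 (rank 24337, signal 24.7), so a summit there need not mean binding.

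**Figure D3:**
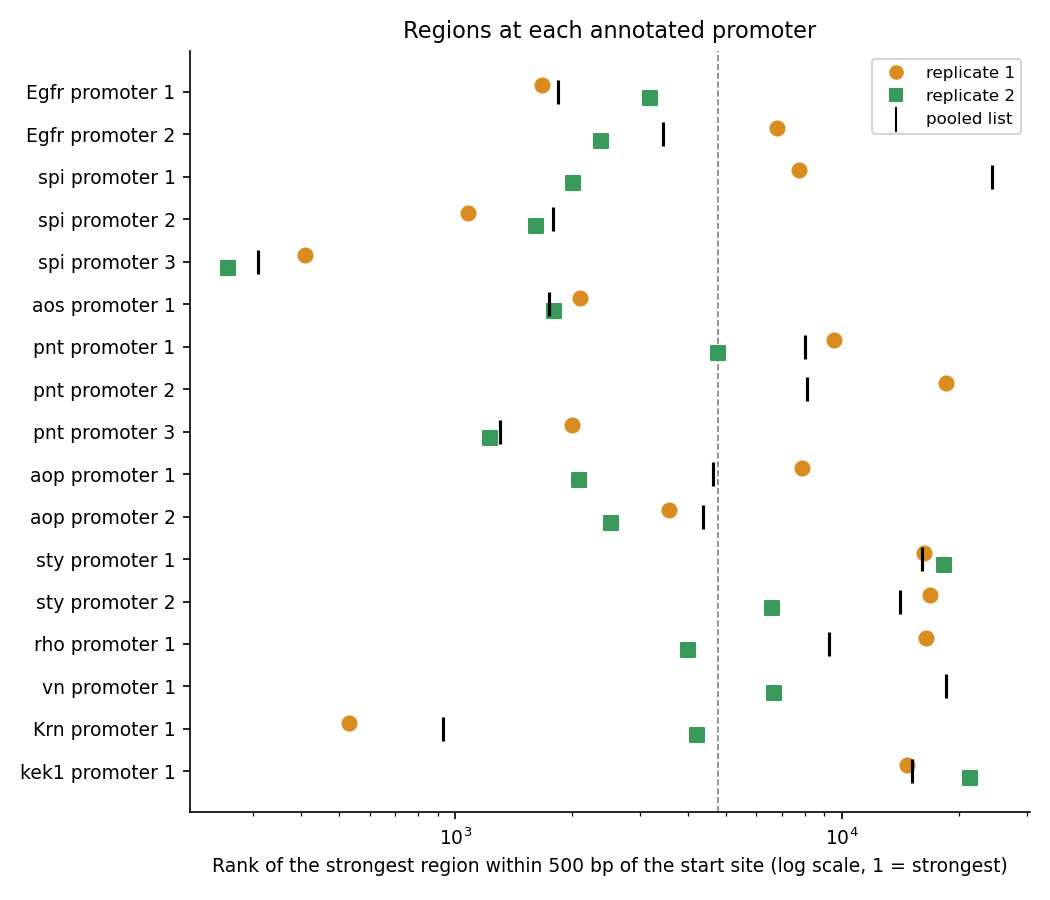
Rank of the strongest region within 500 bp of each annotated promoter (x axis, log scale, 1 is the strongest) in replicate 1 (circles), replicate 2 (squares) and the pooled list (bars); promoters are numbered from the 5′ end of the gene and the dashed line marks rank 4782. Marked promoters run from spi promoter 3 (408 in replicate 1 and 259 in replicate 2) to aop promoter 1 (7857 and 2083), and the promoters of sty and kek1 lie beyond the line in both replicates.

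Among the ligand genes, spi was bound at both of its internal promoters. It encodes Spitz, a TGF-alpha-like protein made as a membrane-bound precursor, and lies on the minus strand of 2L, 19567900 to 19577315. Its strongest region (19572781 to 19573027, signal 377, rank 310 of the IDR list) had its summit 294 bp upstream of promoter 3, the start of transcripts spi-RB and spi-RE. In the replicates its signal was 220 (rank 408) and 156 (rank 259), high in both libraries. A second region overlapped it (19572900 to 19573309, signal 149, rank 2329), 495 bp from the same start site and so barely inside the promoter window. It ranked 3853 in replicate 1 and 3416 in replicate 2, again close together. The replicate scales were set separately, so signals of different libraries are not compared with each other.

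The replicates placed the region at spi promoter 2 differently. This promoter starts transcript spi-RG. The IDR region there (19575545 to 19575954, signal 169, rank 1790) had its summit 163 bp upstream of the start site. The nearest region of replicate 1 ranked 1075 with a signal of 141. That of replicate 2 ranked 12802 with a signal of 19.9. Replicate 2 had instead a strong region (signal 75.5, rank 1618) 63 bp from the start site. So both libraries put a strong region at this promoter, at different positions within it.

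The first spi promoter, of spi-RA and spi-RF, was unmarked by the 500 bp rule, with the nearest IDR summit 532 bp inside the gene. That region (19576578 to 19576987, signal 132, rank 2957) ranked 3411 in replicate 1 and 2013 in replicate 2, where the summit fell inside the 500 bp. The fifth region (19571718 to 19572127, signal 115, rank 3733) was intronic in all 5 spi transcripts, in first introns of 732 bp (spi-RB) to 7959 bp (spi-RF). It ranked 5317 in replicate 1 and 3311 in replicate 2, so it was among the 4782 strongest regions, the top set, of replicate 2 alone. This set has as many regions as the IDR list.

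Krn encodes Keren, a TGF-alpha-like ligand related to Spitz, and carried 6 regions in the shortest window of the set. The gene lies on the minus strand of 3L, 17649562 to 17654280, and shares its annotated start site with Ndfip, while CG7484 starts 337 bp away on the other strand. Regions at this start site therefore cannot be given to Krn alone. The strongest (17653554 to 17653759, signal 297, rank 547) lay in intron 1 of Krn, 619 bp past the start site, inside Ndfip as well. Its signal was 205 in replicate 1 (rank 471) and 95.8 in replicate 2 (rank 965), so it was strong in both. The promoter region (17654158 to 17654567, signal 234, rank 929) had its summit 83 bp upstream. Replicate 1 ranked it 531, with a signal of 194, and replicate 2 ranked it 4225, with a signal of 46.5.

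A second Krn promoter region (17654358 to 17654767, signal 128, rank 3107) had its summit 283 bp upstream of Krn and 54 bp from the start of CG7484. It ranked 2624 in replicate 1. In replicate 2 it matched the same region as its neighbour, at rank 4225. Replicate 2 thus has a single region where the IDR list has a pair. Farther upstream, regions lay at 3690 bp (17657765 to 17658174, signal 130, rank 3028) and 4326 bp (17658401 to 17658810, signal 120, rank 3467). The first ranked 4157 and 3242 in replicates 1 and 2, and the second 2001 and 17686. The last region, 4483 bp downstream (17644874 to 17645283, signal 131, rank 2996), lay 43 bp from the start site of Pep, with ranks of 4609 and 2352. It was the only member region with the DRE word TATCGATA.

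The neuregulin-like ligand gene vn carried a single weak region. It lies on the minus strand of 3L, 5813338 to 5845664, and the region (5819254 to 5819663, signal 110, rank 4046) lay in its 23921 bp first intron, 26205 bp from the start site. Replicate 1 ranked it 2092, with a signal of 101. In replicate 2 it ranked 27784 with a signal of 8.03, near the end of that list. It was therefore supported by replicate 1 alone. Another vn intron region, at 5836162 to 5836571, ranked 4604 in replicate 2 and 9698 in replicate 1 and was outside the IDR list. The vn promoter had no IDR region, and its best regions ranked 18514 in the pooled list and 6682 in replicate 2.

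No IDR region was found at rho, which encodes Rhomboid, the intramembrane protease that releases Spitz. The gene lies on the plus strand of 3L, 1463811 to 1468944, and the nearest IDR summit was 5663 bp from its start site. Its strongest pooled region ranked 9248, with a signal of 62.1, 32 bp from the start site. In replicate 2 the rho promoter reached rank 3994, with a signal of 48.1. In replicate 1 the region there ranked 16505, with a signal of 27.5, and the strongest region of the window ranked 11370. The rho promoter was thus among the 4782 strongest regions of replicate 2 alone.

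Egfr, the receptor gene, carried more regions than any other member. It lies on the plus strand of 2R, 21522420 to 21559977, with a promoter for transcript Egfr-RA at its 5′ end and one for Egfr-RB inside the gene. The strongest region (21551387 to 21551652, signal 321, rank 444) lay 4889 bp past the second promoter, in the first intron of both transcripts, which is 31587 bp long in Egfr-RA and 6938 bp in Egfr-RB. Its signal was 177 in replicate 1 (rank 664) and 133 in replicate 2 (rank 393), so it was strong in both.

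Both Egfr promoters were marked. At promoter 1 a region (21522351 to 21522760, signal 166, rank 1842) had its summit 136 bp past the start site, in the 5′ UTR. Its signal was 112 in replicate 1 (rank 1679) and 54.6 in replicate 2 (rank 3178). At promoter 2 a region (21546331 to 21546740, signal 121, rank 3448) had its summit 107 bp upstream. Its signal was 51.7 in replicate 1 (rank 6801) and 63.3 in replicate 2 (rank 2379). Promoter 1 thus ranked among the 4782 strongest regions of both replicates, and promoter 2 of replicate 2 alone.

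The first intron of Egfr-RA held 5 more summits, 4 of them upstream of the second promoter. One at 21542599 to 21542723 (signal 154, rank 2160) ranked 2391 in replicate 1 and 1993 in replicate 2. Another at 21524019 to 21524428 had a signal of 114 (rank 3767) and ranked 2864 and 3886, so each of these was in the top set of both. A region at 21543226 to 21543635 (signal 119, rank 3536) ranked 4045 in replicate 1 and 5766 in replicate 2. The weakest (21541022 to 21541431, signal 101, rank 4622) ranked 15739 in replicate 1 and 2023 in replicate 2. These 4 upstream regions thus ran from shared ones to ones that a single replicate placed high. Past the second promoter, in the first intron of both transcripts, the fifth region (21553649 to 21554058, signal 136, rank 2768) ranked 5591 and 1642. The remaining region (21518868 to 21519277, signal 128, rank 3114), 3347 bp upstream, lay 33 bp from the start of CG10494. It ranked 2650 in replicate 1 and had no region within 200 bp in replicate 2.

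Of the nuclear factors, aop carried the strongest region of the whole set. It encodes the repressor Yan and lies on the minus strand of 2L, 2156484 to 2178754. The region (2164852 to 2165087, signal 431, rank 229) was intronic in 3 of its 5 transcripts, 3455 bp upstream of the second promoter. The intron is 17264 bp long in aop-RB and aop-RE and 10559 bp in aop-RC. Its signal was 255 in replicate 1 (rank 278) and 169 in replicate 2 (rank 213), high in both libraries. A second region in the same introns (2163596 to 2163767, signal 176, rank 1626) ranked 2442 and 1113. These 2 intron regions stood well above the aop promoters.

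Both aop promoters were marked, at the weak end of the list. At promoter 1, of aop-RB, aop-RC and aop-RE, the summit lay 22 bp past the start site, in the 5′ UTR (2178527 to 2178936, signal 101, rank 4629). It ranked 7857 in replicate 1 and 2083 in replicate 2. At promoter 2, of aop-RA and aop-RD, summits lay 110 bp upstream (2161432 to 2161841, signal 105, rank 4363) and 378 bp upstream (2161700 to 2162109, signal 98.8, rank 4773). The first had no region within 200 bp in replicate 1 and ranked 2519 in replicate 2, and the second ranked 3569 and 19282. None of these 3 promoter regions was in the top set of both replicates.

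The other aop regions lay in the first introns of aop-RB, aop-RC and aop-RE and upstream of the gene. The intron region at 2171356 to 2171765, with a signal of 128 (rank 3134), ranked 3581 in replicate 1 and 3396 in replicate 2. The weaker one at 2177609 to 2178018, with a signal of 101 (rank 4598), ranked 4837 and 3952. A region 1520 bp upstream (2180069 to 2180478, signal 146, rank 2435) ranked 2334 and 3206. It was the only aop region with TAATTA within 100 bp of its summit.

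The activator gene pnt is known to make protein isoforms with different first exons, and 1 of its 3 promoters was marked. The gene lies on the minus strand of 3R, 23290231 to 23346167. The marked promoter is the most 3′ one, of pnt-RC and pnt-RE, with a summit 329 bp upstream (23295362 to 23295771, signal 199, rank 1308). Its signal was 103 in replicate 1 (rank 2000) and 86.1 in replicate 2 (rank 1226), in the top set of both. Promoters 1 (pnt-RB) and 2 (pnt-RD) had no IDR region, with best pooled ranks of 8007 and 8124. In replicate 2, promoter 1 reached rank 4767, with a signal of 43.3, just inside the top set.

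Introns of pnt held 4 more regions. In the 24337 bp intron 3 of pnt-RB, regions lay at 23334230 to 23334639 (signal 147, rank 2376), 23337141 to 23337550 (signal 116, rank 3698) and, weaker, at 23334857 to 23335266 (signal 109, rank 4064). They ranked 4820, 3369 and 3644 in replicate 1, and 1230, 7224 and 5317 in replicate 2. Each of the 3 was thus in the top set of a single replicate. A region intronic in all 4 transcripts (23293089 to 23293498, signal 133, rank 2888) lay in the first intron of pnt-RE (1163 bp) and pnt-RC (1169 bp) and in a 19300 bp intron of the other two. It ranked 12061 in replicate 1 and 833 in replicate 2. The last region, 1904 bp upstream (23347866 to 23348275, signal 147, rank 2404), lay 57 bp from the start site of PolE1 and ranked 1998 and 5431.

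Among the inhibitors, aos was bound at its promoter. It encodes Argos, a secreted protein that sequesters Spitz, and lies on the minus strand of 3L, 16470386 to 16483650, within the gene CG33158. The promoter region (16483944 to 16484093, signal 170, rank 1747) had its summit 319 bp upstream of the single start site. Its signal was 100.5 in replicate 1 (rank 2102) and 72.0 in replicate 2 (rank 1802). The replicate ranks were close to each other. Its 10306 bp first intron held a region at 16480316 to 16480725 (signal 119, rank 3518) and a weaker one at 16476578 to 16476987 with a signal of 101 (rank 4614). They ranked 3207 and 4425 in replicate 1 and 6878 and 6854 in replicate 2, so both were in the top set of replicate 1 alone. The IDR region nearest outside any of the 10 windows was 5405 bp from aos, with a signal of 145.

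The gene sty, for Sprouty, an intracellular inhibitor of receptor tyrosine kinase signalling, had 5 regions and no marked promoter. It lies on the minus strand of 3L, 3401153 to 3424935. Its strongest region was past the 3′ end, 3105 bp downstream (3397977 to 3398125, signal 230, rank 950). The signal was 147 in replicate 1 (rank 984) and 92.3 in replicate 2 (rank 1042), nearly the same rank in both. Another lay 1790 bp downstream (3399158 to 3399567, signal 142, rank 2587), with ranks of 1982 and 6919.

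Inside sty, regions lay in the 19503 bp first intron of sty-RC at 3420321 to 3420730, with a signal of 147 (rank 2381), and at 3423085 to 3423494, with a signal of 105 (rank 4370). Their ranks were 3029 and 1660 for the first and 6657 and 3265 for the second. A region at 3417147 to 3417556 (signal 123, rank 3314) had its summit 609 bp past promoter 2, in the 5′ UTR of sty-RB, and ranked 3573 and 3866. The sty promoters themselves ranked 16081 and 14124 in the pooled list, far below the regions around them.

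The gene kek1 encodes a transmembrane protein with leucine-rich repeats that binds Egfr and inhibits it, and it had no IDR region. It lies on the minus strand of 2L, 12817000 to 12822787, and the nearest IDR summit was 6601 bp from its start site. Its strongest pooled region ranked 5484, with a signal of 90.2, 1101 bp upstream. The strongest of replicate 1 ranked 4520, with a signal of 66.4, 896 bp upstream, and that of replicate 2 ranked 5172, with a signal of 41.1, 1102 bp upstream. The replicate 1 region was inside the 4782 strongest of its list and the replicate 2 region outside, while the promoter itself ranked 15134 in the pooled list. Some member regions lie near the threshold. The weakest IDR region at a member, at aop, had a signal of 98.8, where the whole list reached down to 98.7. The strongest pooled region left out at a member, at Egfr, had one of 98.3.

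Most summits lay in introns. Of the 43 regions, 22 (51.2%) were in an intron outside any promoter, against 31.3% of the 4753 IDR regions on the chromosome arms. The first intron of a transcript held 19 of the 22 (86.4%), against 70.9% of the 1486 intron regions of the list. Another 12 (27.9%) were at a promoter of the gene. Of the rest, 5 were upstream, 3 downstream and 1 in a 5′ UTR, and 0 were in coding exons. These places are relative to the member, and some upstream and downstream summits lay at the start site of another gene. Shares of all IDR regions in these places are not given here. The median signal was 158 at promoters and 123 in introns. Counting the start site of any protein-coding gene, 15 of 43 summits (34.9%) were within 500 bp, against 2515 of the 4753 (52.9%). These shares come from windows of long genes (median 17768 bp, against 2166 bp), and shares at genes of like length were not compared. Member regions were not strong ones as a group: their median signal was 131, with a range from 98.8 to 431, against a median of 147 over all IDR regions.

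Replicate support varied among the regions. The IDR list was made from both replicates, so their ranks are no independent check of it. At each of the 8 genes the strongest IDR region was also the strongest pooled region, with the same position and signal. At every member the pooled list held as many regions down to rank 4782 as the IDR list. The IDR regions at members thus follow the pooled signal, and one can rank low in a replicate. Of the 43 regions, 21 (48.8%) were among the 4782 strongest of both replicates, against 57.0% of the 4753 IDR regions on the chromosome arms. Another 12 were in the top set of replicate 1 alone and 10 in that of replicate 2 alone. Support followed rank. Down to rank 1195, all 6 member regions had both replicates, against 96.7% of all regions. From rank 1196 to 2391 it was 7 of 9 (79.3% of all), from 2392 to 3586 it was 7 of 16 (42.9%), and from 3587 to 4782 it was 1 of 12 (10.1%). Member regions thus had about the support of other regions of their rank.

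**Figure D4:**
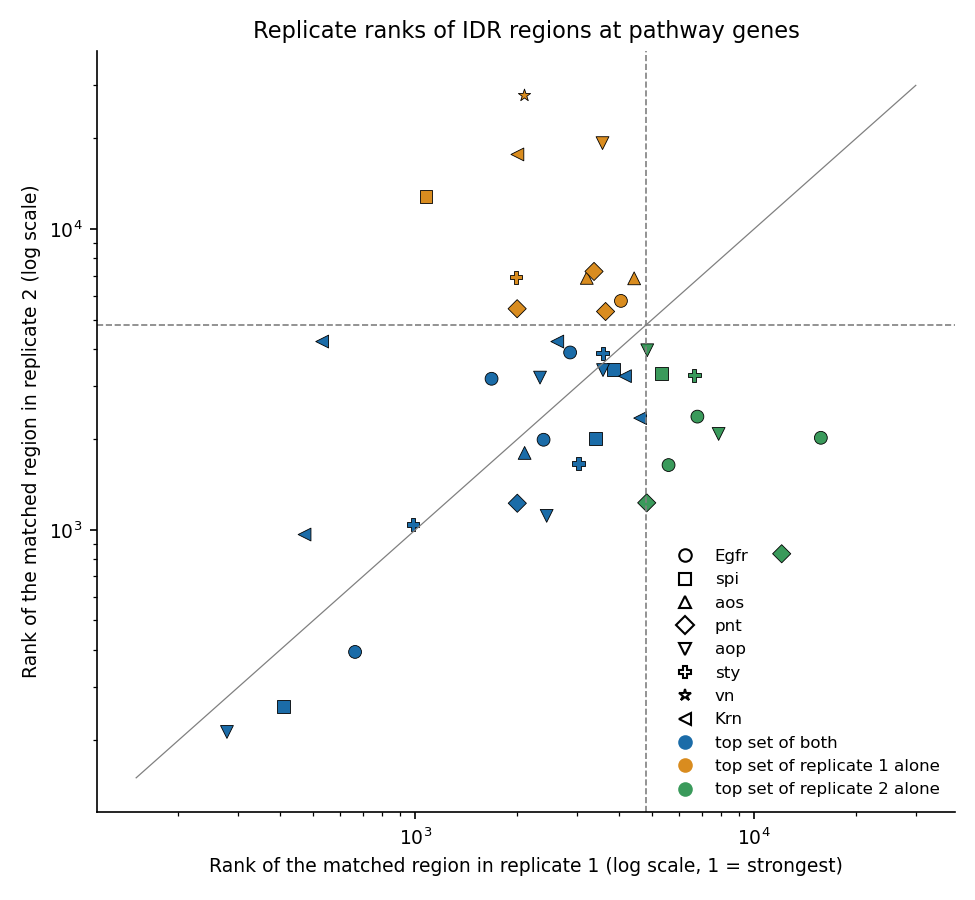
Rank of the matched region in replicate 1 (x axis) and replicate 2 (y axis), both on log scales with 1 the strongest, for the 41 member regions matched in both replicates. Shapes are genes, colours the support, dashed lines rank 4782 and the diagonal equal ranks; the strongest regions of aop (278 and 213) and spi (408 and 259) lie near the diagonal, and the vn region (2092 and 27784) lies far from it.

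By gene, the regions in the top set of both replicates were counted over 1 to 9 regions each. Differences between genes were not tested, and support followed rank. Among the regions of Krn, 5 of 6 were in the top set of both, though the pair at its promoter shared a single match in replicate 2. For sty and for spi it was 3 of 5. The counts were 4 of 8 for aop and 4 of 9 for Egfr. For pnt this was 1 of 6, for aos 1 of 3 and for vn 0 of 1. The replicates' own top sets also held 12 regions at members with no IDR summit within 200 bp, 6 in each replicate. They lay at Egfr, spi, pnt, aop, sty, rho, vn and kek1. The share of each replicate's whole top set without an IDR summit is not given here. Whether 12 is many or few for these windows therefore cannot be said.

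Base composition moved with the rank difference between replicates. The 19 matched regions ranked better in replicate 1 had a median of 65.2% A and T within 100 bp of the summit, and the 22 ranked better in replicate 2 had 60.0%. Across the 41 regions Spearman's rho between A and T content and the log2 ratio of the replicate 1 to the replicate 2 rank was -0.435, against -0.372 across 4497 IDR regions. These are descriptions across regions that come from the same 2 libraries. The pnt intron region at rank 833 of replicate 2, with 47.3% A and T, is an example. The part of base composition in the difference was not tested.

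**Figure D5:**
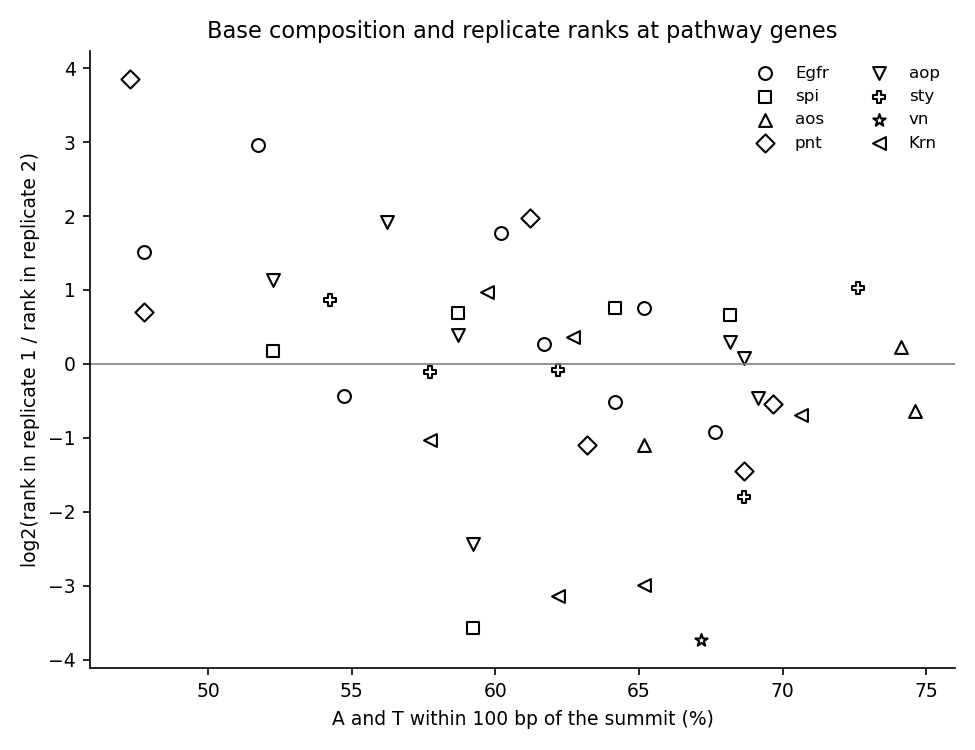
Share of A and T within 100 bp of the summit (x axis, percent) and log2 ratio of the rank in replicate 1 to that in replicate 2 (y axis; positive values mean a better rank in replicate 2) for the 41 member regions matched in both replicates, with shapes for genes. Regions low in A and T lie mostly above 0, up to the pnt intron region at 47.3%, and the vn region, at 67.2%, is the lowest point.

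Over all 43 windows of 201 bp, 18 held at least 1 of the 7 words (41.9%), against 55.1% of all IDR summits and 45.7% of windows 600 bp away. GAGAGA was the most frequent, at 10 summits (23.3%), against 15.0% and 8.98%. They were 3 at Egfr, 3 at aop, 2 at spi, 1 at aos and 1 at pnt. The homeodomain core TAATTA lay at 3 summits (6.98%), of spi, aop and sty, against 15.6% of all IDR summits and 11.2% of flanks. TAACTA lay at 2, of spi and Krn (4.65%, against 11.4% and 8.85%). The E-box CAGCTG lay at 5 summits (11.6%, against 11.0% and 10.1%) and AGATAA at 2 (4.65%, against 13.3% and 11.8%). The DRE word TATCGATA lay at 1 summit, at Krn (2.33%, against 5.05% and 0.6%). The ETS core CCGGAA, of the family of Pnt and Aop, lay at 0 of 43, which allows a share of up to 6.98% at 3 counts, against 3.05% and 6.2%.

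Another 26 pathway genes were compared, all but Shc longer than the median gene of 2166 bp. Of them, 17 had an IDR region in the same window, against 47.4% of all genes and 57.6% of those at least as long as Krn. At a promoter, 8 had one, against 21.5% of all genes. The adaptors and cascade had 8 of 11. Shc (signal 571), Ras85D (149), cnk (530), ksr (116) and drk (113) had their strongest region at the start site of a neighbour (aay, rump, l(2)k01209, CG31550 and mEFTu1). Raf, the MAP kinase kinase kinase, had 11 regions, the strongest in an intron (564), dos one at its promoter (220) and Dsor1 one downstream (107). The group listed here as negative regulators had 4 of 5. It included edl (415), whose product binds both the repressor Aop and the activator Pnt. The others were the repressor gene cic (288), RasGAP1 (240) and the MAP kinase phosphatase gene Mkp3 (169). Ligand processing had ru (203) and S (141) of 5 genes. The Kekkon family had kek5 (211), kek4 (133) and kek6 (101) of 5, the regions of the last pair at the start sites of snRNA:U2:34ABb and pasha. No region was found at grk, rho-4, stet, Sos, csw, rl, Cbl, kek2 and kek3.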

How the data were processed

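ChIP-seq libraries of 2 biological replicates of 1 group were analysed from region lists that the authors deposited in dm6, up to 29999 regions each for replicate 1, replicate 2 and both pooled, and 4782 regions past the IDR threshold. The signal of each region is the value the authors deposited from their peak caller, on a scale not stated, and served for ranking within each list only. Aligner, peak caller and versions: not given in the sources used here. Separate embryo samples are given as biological replicates, per the labels.

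Summits (start plus deposited offset) were placed on Ensembl release 115 genes (BDGP6.54) with Python 3.11.15, pandas 2.3.3 and numpy 2.4.6. Ranks count all regions of a list, including 29 mitochondrial ones in the IDR list; comparisons with all regions used the 4753 on the 6 nuclear chromosome arms. Start sites within 300 bp formed 1 promoter, marked when a summit lay within 500 bp. A replicate match was the nearest summit within 200 bp, and the top set of a replicate is its 4782 strongest regions. The nearest summit was chosen after the values were seen, in place of any top region within that distance. Words were searched on both strands of 201 bp windows. Placement as promoter, upstream or downstream was checked with summits planted at 200 real genes, and all 200 were placed as planted. The expected places used the same start sites, so this checks the code alone. Intron placement and replicate matching were not checked in this way. No statistical test was run.

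The members, gene lists and words were chosen with earlier results of these data known. All 10 members are named, with every IDR region at them, the strongest pooled and replicate regions where there is none, neighbours sharing a region, and other pathway genes with an IDR region by their strongest one. Alternatives were other windows, the gene body, the stronger regions, the pooled list, each replicate's list, midpoints and other matching distances. Lists in dm3 were not used here, and the sequence at the strongest aop summit is not reported here.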

Additional observations from a re-analysis of the deposited data

How the results depend on the processing

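Of 25 alternatives to the 4 counts of genes and regions, 24 stayed within 1.5 times the reported count. The exception was the stronger part of the IDR list, above its median rank, which left 15 of the 43 regions at members; it holds fewer regions by construction. The number of members with a region was 7 there, 10 with a window of 10000 bp, and 9 with the strongest regions of either replicate alone. Without replicate 2 the member windows held 39 regions and without replicate 1 they held 37. The strongest pooled regions gave the reported 8 members, 43 regions and 6 members with a marked promoter again. At every member they were as many as the IDR regions, so these alternatives are no separate check. The members with a marked promoter were 4 within 200 bp of a start site and 7 within 1000 bp. Shares of all genes under these other windows and lists are not given here. A wider window takes in more regions at any gene, so these counts show only how the reported ones move. Regions in the top set of both replicates numbered from 19 to 24 over the matching rules, 21 with any top region within 200 bp, an alternative chosen after the data were seen. No paired analysis was possible because there is 1 group.

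Depth is unknown, so an absent region is a region not called at an unknown depth. The threshold of the IDR list falls between regions of nearly equal signal. The 2 replicates give no estimate of error for a region, and the control named in the labels was not analysed here.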
